A study of Mus musculus with 4 samples.

Results

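The structural genes of the extracellular matrix were followed through single wells of mouse heart cells. The list held 34 genes, listed by name and role, of the 29245 mouse gene columns in the deposited tables. They fell into 6 fibrillar and fibril-associated collagens, 4 microfibrillar and network collagens, 9 basement membrane genes, 5 elastic fibre genes, 3 crosslinking enzymes, 4 proteoglycans and 3 glycoproteins or mineral-binding proteins. All 34 had UMIs (unique molecular identifiers, 1 per captured RNA molecule) in kept wells.

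The hearts came from C57BL/6 mice, 2 wild type (WT1 and WT2) and 2 labelled deficient in the Hippo pathway kinases Mst1 and Mst2 (KO1 and KO2). The labels give the genotype only as WT or as Mst1/2-deficient KO, and no floxed allele, Cre driver, age, sex or injury is named in the sources used here. Cardiomyocytes (CM) were spun away from the other cells (non-cardiomyocytes, NCM) at low speed. Each of the 4 chips carried 1 genotype and 1 fraction, and wells of every animal lay on the CM chip and the NCM chip of that genotype. Within a fraction, genotype and chip therefore cannot be told apart, and within a genotype the same holds for fraction and chip. The replicate was the animal, so each group had n = 2, and nothing in the labels says more about how the animals were matched.

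Kept wells numbered 692, 703, 715 and 747 in the NCM fraction and 210, 274, 264 and 385 in the CM fraction, here and below in the order WT1, WT2, KO1, KO2. A level is the UMIs of a gene per 1000000 UMIs outside mitochondrial and haemoglobin genes, summed over the wells of an animal. UMI levels are not scaled by transcript length, so they are compared between wells for 1 gene and not between genes. Mitochondrial genes took 7.45, 11.2, 58.1 and 36.5% of NCM UMIs and 38.1, 35.7, 47.2 and 36.4% of CM UMIs. The targeted genes were looked at in each animal: Stk4, which encodes MST1, stood at 53.1, 47.3, 45.8 and 37.5 in NCM wells and Stk3, which encodes MST2, at 23.5, 38.6, 29.0 and 26.3. In edgeR these KO-minus-WT differences were -0.44 (SE 0.28, adjusted p = 0.507) and -0.34 (SE 0.38, adjusted p = 0.719) on the log2 scale, so RNA of both genes was still counted in the KO libraries. Which part of either gene was deleted, and in which cells, is not given in the sources used here, so these counts do not check the label. Between 60 and 400 well barcodes were shared by any 2 chips.

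Wells were sorted into classes by clustering without the 34 genes and without 46 related matrix genes, and clusters were named from marker genes that belong to neither list. A class is therefore defined by other genes of the same wells. In the NCM fraction, fibroblast-like wells numbered 88, 102, 68 and 65, endothelial-like wells 66, 155, 229 and 120, macrophage-like wells 294, 288, 77 and 68 and neutrophil-like wells 72, 38, 36 and 20. The summed level of 22 fibroblast markers (such as Pdgfra, Tcf21 and Dpt) was 1.70, 2.14, 1.56 and 1.00% in fibroblast-like wells against 0.142, 0.106, 0.206 and 0.189% in endothelial-like wells. The 20 endothelial markers (such as Pecam1, Cdh5 and Kdr) stood at 2.93, 3.27, 2.09 and 1.79% in endothelial-like wells and 0.210, 0.172, 0.413 and 0.290% in fibroblast-like wells. In the CM fraction, cardiomyocyte-like wells numbered 117, 195, 137 and 268, and 16 cardiomyocyte markers made up 10.2, 11.3, 6.84 and 10.1% of their UMIs. A further cluster held 70, 20, 23 and 50 NCM wells and 19, 27, 16 and 13 CM wells. Its 10 leading genes against other wells of its libraries were Dmkn, Postn, Col5a2, Timp1, Col3a1, Cthrc1, Mfap5, Col1a2, Wfdc18 and Arl5c. Of these, Col5a2, Col3a1, Mfap5 and Col1a2 are members of the list and Timp1 is a related gene. This cluster did not meet the rule for a name, was singled out after its values had been seen, and is called Postn-led here without a cell type name or a test.

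The extracellular matrix of the heart is a mesh of fibrillar collagens made by fibroblasts, with basement membranes around vessels and muscle cells. Collagen chains are folded and trimmed as procollagens, assembled into fibrils whose width is tuned by small leucine-rich proteoglycans, and joined by lysyl oxidases. Elastic fibres are built on fibrillin scaffolds with the help of fibulins. After injury, activated fibroblasts lay down more type I and type III collagen, which forms the scar.

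RefSeq sequences (GRCm38.p6) before the gene start are shown for 4 members that the results below turn on, because they were all higher in fibroblast-like than in endothelial-like wells while their upstream letters differed. Each is the 120 bases before the annotated start, read 5′ to 3′ on the gene's strand, with matches to the searched motifs in capitals. Col3a1 (chr1:45311418-45311537, plus strand) holds a TATAAA, Ogn (chr13:49607895-49608014, plus strand) a GGAATG, Col8a1 (chr16:57754738-57754857, minus strand) GGGCGG matches, all of them on the opposite strand, and Fbln1 (chr15:85205829-85205948, plus strand) none of the motifs in these bases.
Col3a1: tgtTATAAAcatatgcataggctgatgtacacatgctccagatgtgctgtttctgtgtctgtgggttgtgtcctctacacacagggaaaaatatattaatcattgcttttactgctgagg
Ogn: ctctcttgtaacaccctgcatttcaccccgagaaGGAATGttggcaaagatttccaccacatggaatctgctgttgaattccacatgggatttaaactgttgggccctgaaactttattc
Col8a1: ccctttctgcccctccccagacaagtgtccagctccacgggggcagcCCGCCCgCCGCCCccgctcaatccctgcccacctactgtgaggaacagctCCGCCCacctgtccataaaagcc
Fbln1: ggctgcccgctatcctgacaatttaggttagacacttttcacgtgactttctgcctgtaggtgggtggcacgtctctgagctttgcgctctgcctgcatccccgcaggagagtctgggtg
Promoter entries were found for 20 of the 34 genes. On either strand of the whole entry, TATAAA (the TATA box core) occurred in 2 of the 20 (10%) against 13.6% of all 32851 windows of the same length. CCAAT occurred in 6 (30%) against 37.4%, GGAATG, the core bound by TEAD factors, in 5 (25%) against 14.7%, TGANTCA, the AP-1 motif, in 1 (5%) against 7.81%, and GGGCGG, the GC box, in 14 (70%) against 35.7%. A member was counted once if any of its entries matched, while the share of all windows counts each window, so these shares have unlike units. GGGCGG matches can overlap each other, and a match is a stretch of letters, not a measured binding site.

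The genes of both type IV collagen chains lie head to head, and this pair differed from most other members below. Col4a1 (chr8:11198423-11312889, GRCm38.p6) is read from the minus strand and Col4a2 (chr8:11312805-11449287) from the plus strand, so the gene spans overlap. The starts used for their promoter entries lie at 11312826 for Col4a1 and 11312805 for Col4a2, and 22 bases are read from both of these starts.

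Matrix RNA was concentrated in fibroblast-like and Postn-led wells. The 34 genes together made up 6.43, 5.60, 4.96 and 5.10% of UMIs in fibroblast-like wells and 3.93, 2.65, 5.30 and 5.08% in Postn-led NCM wells. They made up 1.27, 0.844, 1.34 and 1.63% in endothelial-like, 0.752, 0.668, 0.747 and 0.920% in macrophage-like and 0.212, 0.167, 0.511 and 0.151% in cardiomyocyte-like wells. In each of the 4 animals the fibroblast-like share lay above the endothelial-like, macrophage-like and neutrophil-like shares.

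**Figure D1:**
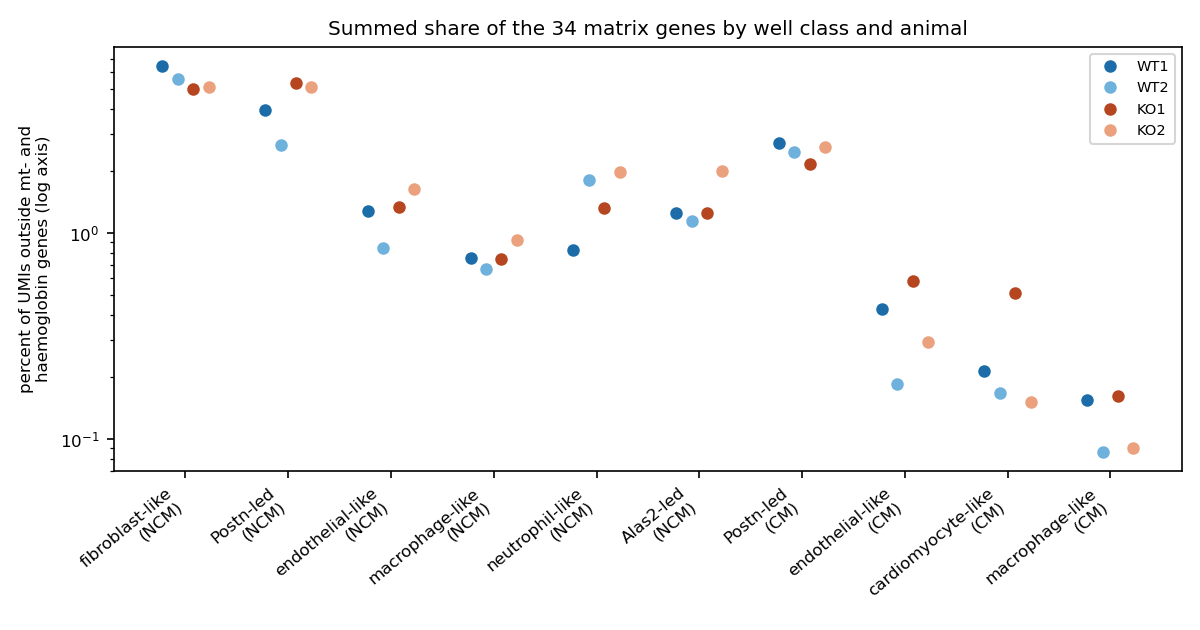
Summed share of the 34 matrix genes (percent of UMIs outside mitochondrial and haemoglobin genes, log axis) by class, 1 point per animal, WT and KO marked separately. Fibroblast-like wells sit between 4.96 and 6.43%, macrophage-like wells between 0.668 and 0.920%, and cardiomyocyte-like wells between 0.151 and 0.511%.

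Neutrophils are not known as a main source of this matrix, so the level in neutrophil-like wells is given for comparison. The 34 genes made up 0.828, 1.81, 1.32 and 1.96% of UMIs in neutrophil-like wells, and 10 of 11 neutrophil markers were detected there (Ly6g was at 0). Fibroblast markers summed to 0.335, 0.928, 0.378 and 0.550% in these wells and to 0.164, 0.167, 0.153 and 0.181% in macrophage-like wells. In each animal the neutrophil-like sum of fibroblast markers was above the macrophage-like one and above the endothelial-like one given earlier. For the 34 genes the neutrophil-like share was below the endothelial-like share in WT1 and KO1 and above it in WT2 and KO2. The part of background RNA in these levels was not tested. Wells of a cluster led by Alas2 held 1.24, 1.13, 1.25 and 2.00% and wells of a cluster led by Ankrd29 held 2.46, 2.29, 1.74 and 2.11%. The median member stood at 35.7% of its fibroblast-like level in neutrophil-like wells, 25.7% in endothelial-like wells and 20.1% in macrophage-like wells (33 members, without Eln, means of the animals' ratios). In the CM fraction the macrophage-like wells held only 0.154, 0.0865, 0.160 and 0.0904%.

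Levels of Fn1, Mgp and Eln are given for further classes. Fn1, which encodes the cell-adhesive glycoprotein fibronectin, reached 816, 653, 1035 and 717 in macrophage-like wells, against 351, 160.1, 285 and 399.5 in neutrophil-like wells and 331, 169, 620.2 and 749 in fibroblast-like wells. In each animal the macrophage-like level was above the neutrophil-like one, and below that of Postn-led wells (867, 1169.6, 1944 and 1263). Mgp, which encodes the calcification inhibitor matrix Gla protein, stood at 5282, 9207, 5183 and 6979 in the 21, 19, 13 and 20 endocardial-like wells and at 6742, 8312, 7843 and 6874 in fibroblast-like wells, so the animals' ranges overlapped. Eln, which encodes tropoelastin, was rare in all classes named here, at 6.47, 2.36, 4.16 and 3.53 in fibroblast-like wells and 0.207, 2.48, 0.139 and 0.134 in endothelial-like wells.

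**Figure D2:**
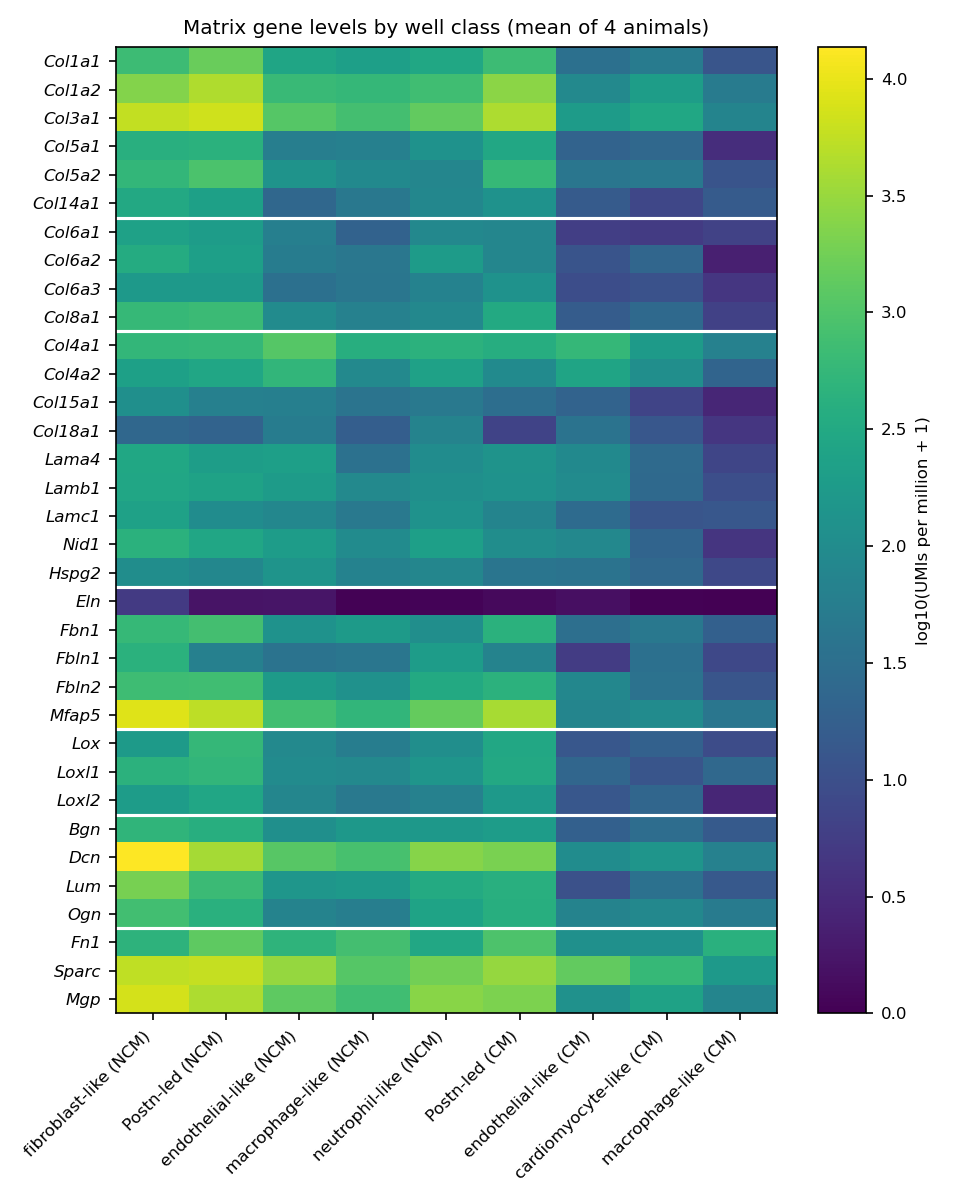
Heat map of the 34 genes (rows, by role) in 9 classes (columns), as log10 of the mean level over 4 animals plus 1 in UMIs per 1000000. Brighter colours stand for higher levels, and the fibroblast-like and Postn-led NCM columns are the brightest for Col3a1, Mfap5 and Dcn, while Col4a1 is brightest in endothelial-like NCM wells.

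Fibroblast-like and endothelial-like NCM wells were compared to ask which matrix genes separate the main stromal and vascular classes. In edgeR 23 of the 34 members were higher in fibroblast-like wells and 2 were lower (adjusted p under 0.05 over all genes), where 5.27% of all 11835 genes tested were called higher and 4.84% lower. The median member differed by 2.24 on the log2 scale, and the median gene by -0.02. All 10 fibrillar, microfibrillar and network collagens and all 4 proteoglycans rose, while both type IV collagen chains fell. Leaving out 1 animal left 20 higher without WT1, 18 without WT2, 21 without KO1 and 22 without KO2. Of all genes, 236 of 12095, 152 of 11918, 222 of 12398 and 365 of 12450 were called higher in these fits.

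**Figure D3:**
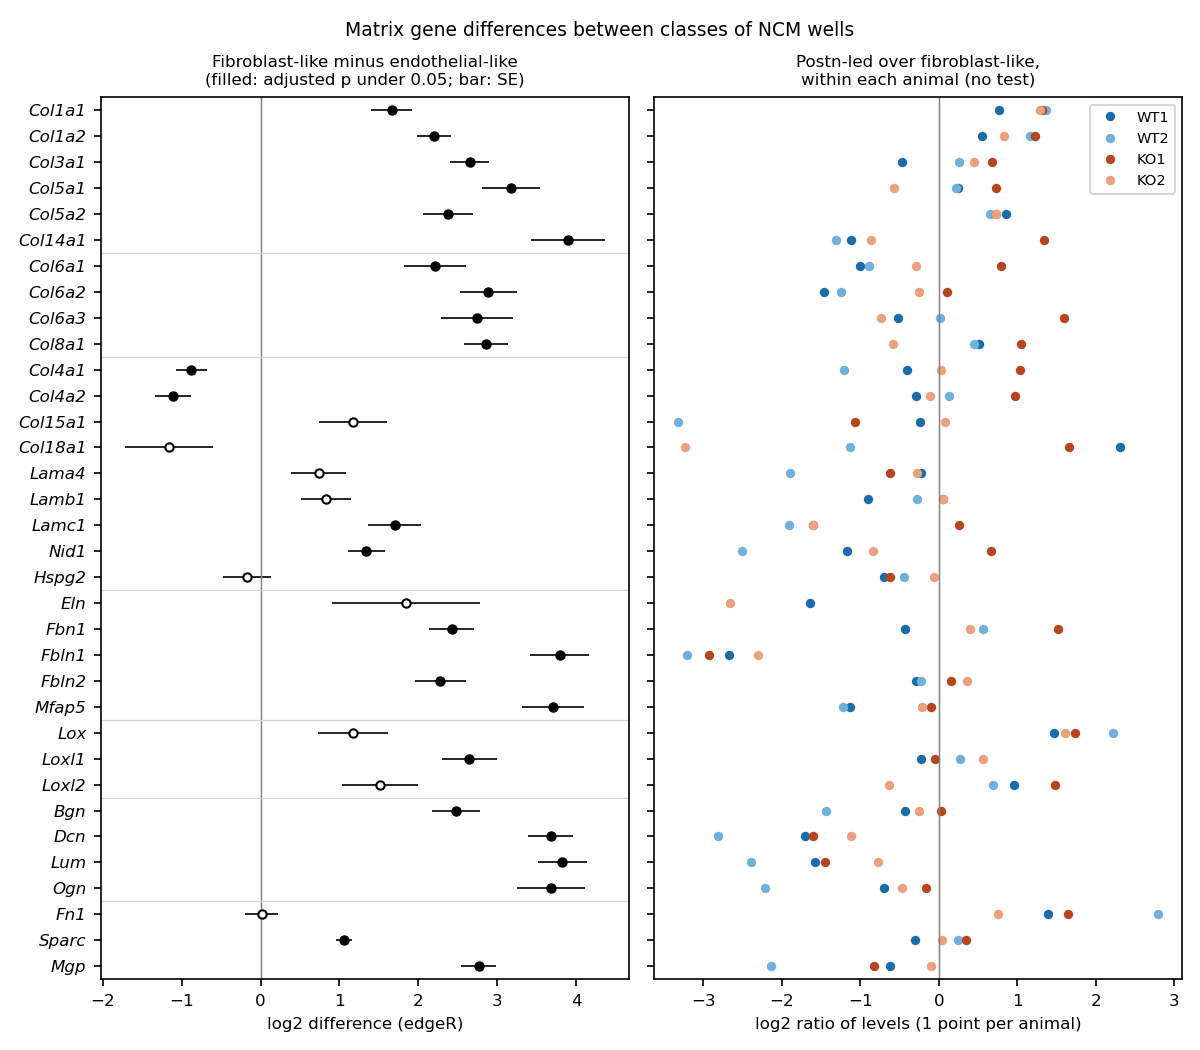
Left, edgeR log2 difference of fibroblast-like minus endothelial-like wells for each gene with its standard error, filled where the adjusted p was under 0.05. Right, log2 ratio of the Postn-led over the fibroblast-like level, 1 point per animal, with Eln drawn only for WT1 and KO2; Lox and Fn1 lie to the right of 0 in all 4 animals and Fbln1, Dcn and Lum to the left.

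All 6 fibrillar and fibril-associated collagens were higher in fibroblast-like wells. Col3a1, the chain of type III collagen, stood at 7488, 2400.4, 7434 and 5484 in fibroblast-like and 1193, 395, 868 and 1935 in endothelial-like wells (log2 difference 2.65, SE 0.25, adjusted p = 0.00110, edgeR). Col1a2, a chain of type I collagen, stood at 2455, 1208, 2677 and 2923 against 543, 222, 628 and 1132 (log2 difference 2.20, SE 0.21, adjusted p = 0.00112, edgeR). Its partner chain Col1a1 stood at 731, 379, 678 and 928 against 272, 87.5, 244 and 482 (log2 difference 1.66, SE 0.26, adjusted p = 0.00558, edgeR). For Col3a1 and Col1a2 the 2 classes did not overlap, while the Col1a1 level of KO2 endothelial-like wells was above that of WT2 fibroblast-like wells. Col5a1 and Col5a2 encode chains of type V collagen, which starts fibrils and limits their width. Col5a1 stood at 364, 229, 379 and 625 against 67.0, 11.1, 60.6 and 88.6 (log2 difference 3.17, SE 0.37, adjusted p = 0.00196, edgeR). Col5a2 stood at 480.0, 343, 608 and 754 against 127, 35.3, 175 and 201 (log2 difference 2.38, SE 0.32, adjusted p = 0.00311, edgeR). Col14a1, whose product binds along fibril surfaces, stood at 518, 259, 141 and 331 against 18.2, 10.7, 31.1 and 31.6, with no overlap (log2 difference 3.90, SE 0.47, adjusted p = 0.00231, edgeR).

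The 4 microfibrillar and network collagens were also higher. Col6a1, Col6a2 and Col6a3 encode the chains of type VI collagen, whose beaded filaments link cells to the fibrillar mesh. Col6a1 stood at 241, 280.1, 194 and 204 in fibroblast-like and 73.0, 35.8, 37.8 and 96.2 in endothelial-like wells (log2 difference 2.21, SE 0.39, adjusted p = 0.0110, edgeR). Col6a2 stood at 470.1, 292, 212 and 419.7 against 59.8, 28.4, 70.8 and 59.0 (log2 difference 2.88, SE 0.36, adjusted p = 0.00256, edgeR). Col6a3 stood at 235, 101, 93.1 and 247 against 39.9, 4.75, 32.0 and 52.1 (log2 difference 2.74, SE 0.46, adjusted p = 0.00836, edgeR). For each of the 3 chains the lowest fibroblast-like level was above the highest endothelial-like one. The Col6a1 call was lost without WT1, WT2 or KO1 and the Col6a3 call without WT1 or WT2. Col8a1, a short-chain network collagen of vessel walls and activated fibroblasts, stood at 283, 276, 494 and 1265 against 25.2, 39.2, 101 and 229.7 (log2 difference 2.85, SE 0.28, adjusted p = 0.00112, edgeR).

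The 9 basement membrane genes split by component. Col4a1 stood at 456, 566, 507 and 628 in fibroblast-like and 1202, 924, 1365 and 1024 in endothelial-like wells, and fell in the former (log2 difference -0.88, SE 0.20, adjusted p = 0.0291, edgeR). Col4a2 stood at 183, 174, 267 and 255 against 556, 496, 596 and 470.2, and also fell (log2 difference -1.11, SE 0.23, adjusted p = 0.0183, edgeR). The levels of both chains did not overlap between the classes, yet the Col4a1 call was lost without any 1 of the 4 animals and the Col4a2 call without WT1, WT2 or KO1. Nid1, which encodes the laminin and collagen linker nidogen, was higher in fibroblast-like wells, at 516, 482, 387 and 340.1 against 185, 240.5, 173 and 170.3 (log2 difference 1.34, SE 0.23, adjusted p = 0.00981, edgeR). Lamc1, the laminin gamma chain shared by most laminins, was higher too, at 304, 251, 137 and 252 against 87.3, 61.6, 92.1 and 88.4 (log2 difference 1.70, SE 0.33, adjusted p = 0.0162, edgeR). The Nid1 call was lost without WT1, WT2 or KO1, and the Lamc1 call without WT1, WT2 or KO2. The other 5 members of the group were not called. Lama4 and Lamb1, laminin alpha and beta chains, differed by 0.73 (SE 0.35) and 0.83 (SE 0.31) on the log2 scale, and Hspg2, the perlecan core protein, by -0.18 (SE 0.30). Col15a1 and Col18a1, whose products hold fibrils to basement membranes, differed by 1.17 (SE 0.43) and -1.16 (SE 0.56).

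Of the elastic fibre genes, 4 of 5 were higher in fibroblast-like wells. Mfap5, a microfibril-associated glycoprotein, stood at 13014, 9488, 3742 and 8732 in fibroblast-like and 494, 486, 625 and 1482 in endothelial-like wells (log2 difference 3.71, SE 0.40, adjusted p = 0.00155, edgeR). Fbln1, which encodes fibulin-1, stood at 529.9, 507, 497 and 241 against 17.2, 35.6, 68.1 and 26.3 (log2 difference 3.79, SE 0.37, adjusted p = 0.00112, edgeR). Fbln2, a relative that binds fibronectin and nidogen, stood at 751, 580.2, 887 and 621 against 118, 99.1, 190.5 and 311 (log2 difference 2.28, SE 0.33, adjusted p = 0.00437, edgeR). Fbn1, the fibrillin scaffold, stood at 886, 364, 406 and 669.5 against 139.7, 55.3, 115 and 196 (log2 difference 2.42, SE 0.28, adjusted p = 0.00204, edgeR). The classes did not overlap for any of these 4, and the Fbln2 call was lost without WT2. Eln differed by 1.84 on the log2 scale with an SE of 0.94 (adjusted p = 0.246, edgeR).

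Among the lysyl oxidases, which join collagen and elastin chains, Loxl1 was higher in fibroblast-like wells, at 393, 252, 542 and 648 against 80.3, 18.6, 132 and 156 (log2 difference 2.65, SE 0.35, adjusted p = 0.00311, edgeR). Lox and Loxl2 did not pass the test, with differences of 1.17 (SE 0.45, adjusted p = 0.141) and 1.52 (SE 0.48, adjusted p = 0.0867) in edgeR. Proteoglycans separated the classes clearly. Dcn, which encodes decorin, stood at 15018, 20353, 11548 and 7807 in fibroblast-like and 1266, 855, 1322 and 1165 in endothelial-like wells (log2 difference 3.68, SE 0.28, adjusted p = 0.000845, edgeR). Lum, its neighbour on chromosome 10 that encodes lumican, stood at 2839, 2372, 1303 and 1237 against 144, 121, 153 and 167 (log2 difference 3.83, SE 0.31, adjusted p = 0.000845, edgeR). Ogn, which encodes osteoglycin, stood at 887, 1055, 580.2 and 563 against 30.4, 63.5, 56.6 and 131 (log2 difference 3.68, SE 0.43, adjusted p = 0.00214, edgeR). For each of these 3 genes the lowest fibroblast-like level was above the highest endothelial-like level. Bgn, which encodes biglycan, stood at 441, 416, 559 and 608 against 71.6, 51.5, 165 and 166 (log2 difference 2.48, SE 0.31, adjusted p = 0.00256, edgeR).

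Of the last group, Mgp and Sparc were higher and Fn1 was not called. Mgp stood at 6742, 8312, 7843 and 6874 in fibroblast-like and 1164, 890.1, 1171 and 1948 in endothelial-like wells (log2 difference 2.76, SE 0.22, adjusted p = 0.000845, edgeR). Sparc, a collagen-binding chaperone of the matrix, stood at 6806, 4038, 5519 and 5965 against 3394, 2436, 3377 and 2851 (log2 difference 1.06, SE 0.10, adjusted p = 0.00110, edgeR). Fn1 stood at 331, 169, 620.2 and 749 against 446, 231, 609.6 and 660.1, a difference of 0.01 with an SE of 0.21 (adjusted p = 0.978, edgeR). The wells also differed in mitochondrial share, at 5.84, 7.94, 47.1 and 33.5% in fibroblast-like and 9.55, 13.1, 63.1 and 40.8% in endothelial-like wells, and its part in the result was not tested.

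Of the 46 related genes (collagen folding, turnover, TGF-beta signalling and matrix receptors), 43 were tested here, 16 were higher and 3 lower in edgeR. The largest differences were in Mmp2, a gelatinase (log2 difference 4.73, adjusted p = 0.000993), Itga8, an integrin subunit (4.48, 0.0136), Timp4, a metalloproteinase inhibitor (-4.37, 0.00660), Itga6, a laminin receptor subunit (-3.74, 0.00845), Adamts2, a procollagen trimming protease (3.58, 0.00311), and Ctsk, a collagen-degrading cathepsin (3.03, 0.0129). Timp4, Itga6 and Itga1 were the 3 that were higher in endothelial-like wells.

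Postn-led NCM wells were compared with fibroblast-like wells member by member. Their summed share was below the fibroblast-like one in WT1 and WT2 and differed from it by little in KO1 and KO2. Values are described without a test, because the cluster was chosen after they were seen and its wells, though clustered without the members, were grouped by genes of the same wells. In all 4 animals 5 members were higher and 9 were lower than in fibroblast-like wells, while 10.2% of 14826 genes with at least 40 UMIs were higher and 10.1% lower in all 4. Without 1 animal, 5 to 8 were higher and 9 to 15 lower in the other 3 (13.8 to 17.1% and 14.1 to 16.9% of genes). With mitochondrial and haemoglobin genes kept, 5 were higher and 4 lower (14% and 7.63% of genes), and with wells thinned to 5000 UMIs 9 were higher and 9 lower (12.6% and 14%). With Leiden resolution 0.5 in place of 1.0, 227 of the cluster's wells fell in a fibroblast-named cluster of 559 wells.

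The 5 members on the high side were Col1a1, Col1a2, Col5a2, Lox and Fn1. Lox, the founding lysyl oxidase, stood at 321, 285, 780.0 and 903 in Postn-led wells against 116, 61.1, 234 and 296 in fibroblast-like wells (log2 ratio 1.76 ± 0.33, SD, n = 4). Fn1 stood at 867, 1169.6, 1944 and 1263 against 331, 169, 620.2 and 749 (1.65 ± 0.85, SD, n = 4). Col1a1 stood at 1247, 975, 1687 and 2257 against 731, 379, 678 and 928 (1.18 ± 0.28, SD, n = 4). For Lox, KO2 fibroblast-like wells reached the WT Postn-led range, so the classes separated within animals more clearly than across them. Col1a2 stood at 3588, 2709.6, 6246 and 5209 against 2455, 1208, 2677 and 2923 (0.94 ± 0.31, SD, n = 4), and Col5a2 had the least variable ratio, at 0.74 ± 0.09 (SD, n = 4).

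On the low side were 3 of 4 proteoglycans (Dcn, Lum and Ogn), 3 of 5 elastic fibre genes (Fbln1, Mfap5 and Eln), 2 of 9 basement membrane genes (Lama4 and Hspg2) and Mgp. Fbln1 stood at 82.8, 54.8, 65.2 and 48.9 in Postn-led wells against 529.9, 507, 497 and 241 in fibroblast-like wells (-2.78 ± 0.39, SD, n = 4), with no overlap. Dcn stood at 4616, 2884, 3799.7 and 3603 against 15018, 20353, 11548 and 7807 (-1.81 ± 0.72, SD, n = 4), and Lum at 949.5, 450.3, 476 and 724 against 2839, 2372, 1303 and 1237 (-1.55 ± 0.67, SD, n = 4). Each Dcn and Lum value in Postn-led wells was below every fibroblast-like value. The mean log2 ratio ± SD (n = 4) was -0.89 ± 0.91 for Ogn, -0.92 ± 0.87 for Mgp, -0.75 ± 0.78 for Lama4, -0.67 ± 0.59 for Mfap5 and -0.46 ± 0.28 for Hspg2. Eln stood at 2.08 and 0.557 in WT1 and KO2 and had no UMI in WT2 and KO1, which allows levels of up to 0.248 and 1.27 (3 counts, counting error only). The other 20 members lay on different sides in different animals, with mean log2 ratios from -1.21 for Lamc1 to 0.62 for Loxl2. The 22 fibroblast markers summed to 0.292, 0.139, 0.475 and 0.368% in Postn-led wells and 10 smooth muscle markers to 0.194, 0.175, 0.163 and 0.125%.

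**Figure D4:**
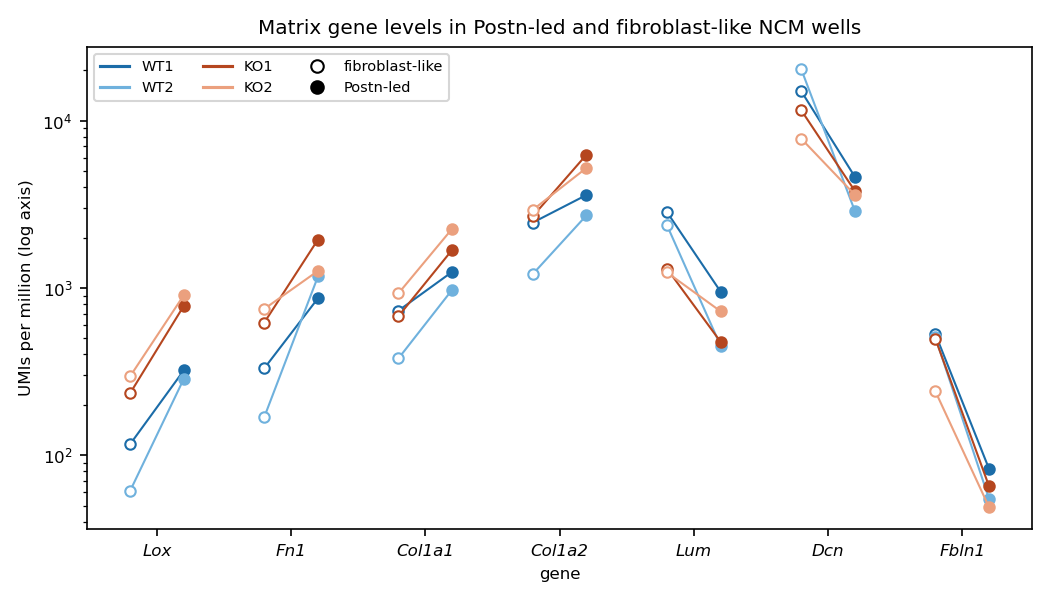
Levels (UMIs per 1000000 UMIs, log axis) of 7 genes in fibroblast-like and Postn-led NCM wells, with a line joining the 2 classes of each animal. All 4 lines slope upward for Lox, Fn1, Col1a1 and Col1a2 and downward for Lum, Dcn and Fbln1.

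The mix of chains can be read as ratios, chosen after seeing the data and given as a description. Lox UMIs per 100 Dcn UMIs were 0.774, 0.300, 2.03 and 3.79 in fibroblast-like and 6.95, 9.90, 20.5 and 25.1 in Postn-led wells, with each animal higher in the latter. Col1a1 UMIs per 100 Col1a2 UMIs were 29.8, 31.4, 25.3 and 31.8 and 34.8, 36.0, 27.0 and 43.3, again with each animal higher in the latter. Col4a1 UMIs per 100 Col4a2 UMIs were 216, 186, 229 and 218 in endothelial-like wells. Across the wells of an animal, Spearman's rho of Col1a1 with Col1a2 ran from 0.69 to 0.80 in Postn-led wells and from 0.27 to 0.56 in fibroblast-like wells; wells share a library and differ in depth.

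The CM and NCM fractions were compared next, over all wells. In such sums, fewer cells of a type and less RNA per cell cannot be told apart. In edgeR 24 of 34 members were lower in the CM fraction and 0 were higher (0 also in DESeq2, and 0 at an unadjusted p under 0.05 in edgeR), where 9.71% of all 15439 genes tested were called lower and 11.9% higher. All 34 differences were negative, with a median of -1.42 against -0.16 over all genes. Lower members numbered 4 of 6 fibrillar collagens, 4 of 4 network collagens, 6 of 9 basement membrane genes, 4 of 5 elastic fibre genes, 1 of 3 crosslinking enzymes, 3 of 4 proteoglycans and 2 of 3 in the last group. The count was 13 without WT1, 22 without WT2, 17 without KO1 and 16 without KO2. Of all genes, 661 of 15561, 582 of 15583, 1418 of 16066 and 474 of 15118 were called lower in these fits. Over the WT animals alone 8 members were lower, where 202 of 16470 genes were. Over the KO animals alone 0 members were lower, where 0 of 15826 genes were called on either side.

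Dcn and Lum had the largest differences. Dcn stood at 477, 441, 603 and 153 in CM wells and 4654, 5219, 3288 and 2614 in NCM wells (log2 difference -2.81, SE 0.29, adjusted p = 0.000231, edgeR). Lum stood at 114, 93.4, 83.0 and 24.9 against 886, 626, 383 and 471 (log2 difference -2.49, SE 0.30, adjusted p = 0.000512, edgeR). Mgp stood at 555, 407, 479 and 348 against 3043, 2693, 2549 and 3027 (log2 difference -2.14, SE 0.23, adjusted p = 0.000308, edgeR). None of these 3 overlapped between fractions. Bgn stood at 36.7, 26.0, 94.8 and 25.6 against 221, 146, 278 and 355 (log2 difference -2.06, SE 0.31, adjusted p = 0.00184, edgeR), and Sparc at 969, 679, 1742 and 624 against 3486, 2325, 3525 and 3402 (log2 difference -1.23, SE 0.26, adjusted p = 0.0105, edgeR). Ogn was not called (log2 difference -0.65, SE 0.22, adjusted p = 0.0653, edgeR).

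The called collagens covered both mesh and filaments. Col3a1 stood at 1057, 754, 1202 and 290.0 in CM wells and 3342, 1385, 3162 and 3289 in NCM wells (log2 difference -1.30, SE 0.38, adjusted p = 0.0366, edgeR). Col1a1 stood at 191, 99.9, 192 and 40.7 against 619, 287, 488 and 822 (log2 difference -1.63, SE 0.42, adjusted p = 0.0241, edgeR). Col5a1 stood at 69.0, 53.4, 80.6 and 17.3 against 230.1, 117, 193 and 244 (log2 difference -1.42, SE 0.39, adjusted p = 0.0305, edgeR). KO2 was the lowest CM animal and KO1 the highest for these 3 chains, and each lost its call without WT1 or KO1, Col3a1 and Col5a1 also without KO2. Col14a1 stood at 37.9, 28.0, 19.3 and 12.5 against 189.9, 94.4, 80.7 and 108 (log2 difference -1.77, SE 0.28, adjusted p = 0.00210, edgeR). The type VI chains Col6a1, at 28.9, 20.2, 17.8 and 5.81 against 103, 94.6, 89.6 and 89.6 (log2 difference -2.03, SE 0.34, adjusted p = 0.00280, edgeR), and Col6a2, at 21.7, 19.9, 53.4 and 7.51 against 168, 103, 118 and 165 (log2 difference -2.18, SE 0.44, adjusted p = 0.00775, edgeR), did not overlap, and Col6a2 lost its call without WT1. Col6a3 stood at 34.7, 23.0, 30.4 and 10.6 against 101, 53.8, 68.1 and 122 (log2 difference -1.31, SE 0.37, adjusted p = 0.0342, edgeR), and its call was lost without any 1 of the 4 animals. Col8a1 stood at 64.6, 49.2, 90.4 and 26.4 against 196, 135, 252 and 434 (log2 difference -1.57, SE 0.39, adjusted p = 0.0201, edgeR), a call lost without WT1 or KO1. Col1a2 and Col5a2 missed the threshold (adjusted p = 0.0509 and 0.0753, edgeR).

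Differences were negative for all 9 basement membrane genes, and 6 of them were called lower in the CM fraction. Nid1 stood at 50.7, 31.4, 64.6 and 21.6 in CM wells and 209.5, 173, 226 and 182 in NCM wells (log2 difference -1.81, SE 0.25, adjusted p = 0.000974, edgeR). Col15a1 stood at 7.62, 7.66, 21.0 and 9.69 against 46.2, 39.6, 70.5 and 90.0 (log2 difference -1.94, SE 0.31, adjusted p = 0.00219, edgeR). Lamc1 stood at 29.4, 31.4, 26.4 and 16.8 against 122, 87.4, 110.0 and 100.2 (log2 difference -1.49, SE 0.27, adjusted p = 0.00425, edgeR). The levels of these 3 did not overlap. Lama4 stood at 57.7, 31.7, 63.1 and 39.1 against 158, 90.8, 179 and 179 (log2 difference -1.13, SE 0.23, adjusted p = 0.00827, edgeR), Lamb1 at 62.9, 36.6, 67.3 and 34.9 against 135, 122, 199 and 178 (log2 difference -1.15, SE 0.24, adjusted p = 0.00995, edgeR), and Hspg2 at 19.1, 28.7, 32.8 and 23.9 against 51.7, 62.7, 143 and 121 (log2 difference -1.21, SE 0.29, adjusted p = 0.0167, edgeR). Col4a1, Col4a2 and Col18a1 were not called, with differences of -0.60 (SE 0.23), -0.45 (SE 0.21) and -0.30 (SE 0.32).

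Of the remaining called members, Mfap5 stood at 539, 664, 669 and 281 in CM wells and 4448, 2824, 1476 and 3028 in NCM wells (log2 difference -1.89, SE 0.36, adjusted p = 0.00599, edgeR). Fbn1 stood at 121, 88.5, 123 and 31.6 against 409, 184, 293 and 478 (log2 difference -1.42, SE 0.41, adjusted p = 0.0348, edgeR). Fbln1 stood at 19.2, 24.1, 47.5 and 24.2 against 139.6, 162, 133 and 71.0 (log2 difference -1.61, SE 0.34, adjusted p = 0.00972, edgeR). For each of the 3, every CM level was below every NCM level. Fbln2 stood at 99.6, 83.0, 147 and 40.6 against 372, 234, 413 and 406 (log2 difference -1.50, SE 0.30, adjusted p = 0.00719, edgeR), and Loxl1 at 52.3, 46.8, 118 and 19.3 against 217, 134, 253 and 427 (log2 difference -1.69, SE 0.46, adjusted p = 0.0280, edgeR). The calls were lost for Fbn1 and Hspg2 without WT1, KO1 or KO2, for Fbln1 without WT1 or WT2, for Loxl1 without WT1 or KO2, for Sparc without WT1, WT2 or KO2, and for Lamb1 without KO2. Lox, Loxl2, Fn1 and Eln were not called (adjusted p from 0.0826 for Lox to 0.323 for Eln, edgeR). Fibroblast markers summed to 0.0511, 0.0422, 0.0692 and 0.0225% in CM wells and 0.506, 0.580, 0.465 and 0.358% in NCM wells, and the part of the fibroblast share in the result was not tested. Of the 46 related genes, 16 were lower and 0 higher in edgeR, led by Mmp2 (-2.86, adjusted p = 0.000147), Mmp9, a gelatinase of myeloid cells (-2.50, 0.00102), and Itga11, a collagen receptor subunit (-2.09, 0.0389).

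The KO was compared with the WT in sets of wells that held at least 20 wells per animal. No member passed the test in edgeR: 0 of 34 in all NCM wells, all CM wells and fibroblast-like wells, and 0 of 33 tested in endothelial-like, macrophage-like and cardiomyocyte-like wells and in endothelial-like CM wells, the last a comparison added after the data were seen. Of all genes tested edgeR called 0.00792% higher and 0.00792% lower (0.0158% together) in fibroblast-like wells and 0% in the other 6 comparisons. At an unadjusted p under 0.05, 8 members were on the higher and 3 on the lower side in NCM wells (7.68% and 6.13% of all genes), 0 and 3 in CM wells (2.21% and 2.34%), and 4 and 4 in fibroblast-like wells (7.09% and 3.82%). The same counts were 3 and 0 in endothelial-like wells (7.49% and 4.98%), 6 and 0 in macrophage-like wells (5.89% and 2.42%), 1 and 0 in cardiomyocyte-like wells (3.5% and 3.14%), and 3 and 0 in endothelial-like CM wells (2.96% and 2.07%). DESeq2 called 2 members higher in NCM wells (Hspg2 and Col4a1, where it called 1.93% of all genes higher), 1 in fibroblast-like wells (Loxl2, 1.91%) and 1 in endothelial-like wells (Col8a1, 1.01%), 0 in the other 4 sets, and 0 lower in any. Mitochondrial shares moved with genotype in the NCM fraction, for fibroblast-like wells 5.84, 7.94, 47.1 and 33.5% and for macrophage-like wells 9.63, 13.7, 50.7 and 28.0%, and their part in these differences was not tested.

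No member passed the test in fibroblast-like wells. There 3 of the 4 proteoglycans lay on the low side in the KO and Bgn on the high side. Dcn stood at 15018, 20353, 11548 and 7807, so that both KO animals were below both WT animals (log2 difference -1.06, SE 0.18, unadjusted p = 0.000511, adjusted p = 0.362, edgeR model fitted over all genes). Lum stood at 2839, 2372, 1303 and 1237 (log2 difference -1.21, SE 0.19, adjusted p = 0.362, edgeR). Ogn stood at 887, 1055, 580.2 and 563, again without overlap, while Bgn stood at 441, 416, 559 and 608, with both KO animals above both WT animals. Of all members, 12 had both KO animals above both WT animals and 7 had both below, where 21% and 19.1% of 13321 genes with at least 40 UMIs did. The 7, a count close to the 19.1% of all genes, were Col6a1, Nid1, Fbln1, Mfap5, Dcn, Lum and Ogn.

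The crosslinking enzymes lay on the high side. Loxl2 stood at 100.1, 63.2, 198 and 409 (log2 difference 1.77, SE 0.51, adjusted p = 0.362, edgeR) and Loxl1 at 393, 252, 542 and 648 (log2 difference 0.73, SE 0.34, adjusted p = 0.482, edgeR), both without overlap. Lox stood at 116, 61.1, 234 and 296, with both KO animals above both WT animals. Col8a1 stood at 283, 276, 494 and 1265 (log2 difference 1.52, SE 0.46, adjusted p = 0.362, edgeR), and KO2 was the highest animal. Without KO2 the log2 difference was 0.556 for Col8a1 and 1.02 for Loxl2, and without KO1 it was 2.04 and 2.20. For Loxl1 it ran from 0.44 without WT2 to 1.04 without WT1. Fn1 stood at 331, 169, 620.2 and 749, also without overlap.

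The abundant collagens were less clearly ordered by genotype. Col3a1 stood at 7488, 2400.4, 7434 and 5484 (log2 difference 0.21, SE 0.42). Col1a2 stood at 2455, 1208, 2677 and 2923 (0.45, SE 0.31). Col6a2 stood at 470.1, 292, 212 and 419.7 (-0.40, SE 0.45). Of these 3 only Col1a2 had both KO animals above both WT animals, and its difference ran from 0.0232 without WT2 to 1.01 without WT1. Col4a1 gave -0.02 (SE 0.31) from levels of 456, 566, 507 and 628, and Fbln2 gave -0.01 (SE 0.28) from levels of 751, 580.2, 887 and 621. Mfap5 stood at 13014, 9488, 3742 and 8732 (-0.997, SE 0.37) and Nid1 at 516, 482, 387 and 340.1 (-0.64, SE 0.30). Both KO animals were below both WT animals for Mfap5 and Nid1, and the Mfap5 difference ran from -0.499 without KO1 to -1.85 without KO2. Sparc stood at 6806, 4038, 5519 and 5965 (-0.09, SE 0.22) and Mgp at 6742, 8312, 7843 and 6874 (-0.21, SE 0.14), with the genotypes mixed. Macrophage markers in the same wells were 0.259, 0.200, 0.403 and 0.505%, endothelial markers 0.210, 0.172, 0.413 and 0.290% and pericyte markers 0.0170, 0.0424, 0.0545 and 0.0970%, all higher in both KO animals than in both WT animals. Fibroblast markers, at 1.70, 2.14, 1.56 and 1.00%, were lower in both KO animals, and cardiomyocyte markers, at 0.105, 0.258, 0.152 and 0.523%, were mixed; their part in the result was not tested.

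In Postn-led NCM wells, 21 members had both KO animals above both WT animals and 0 had both below, where 18.4% and 19.6% of 13259 genes did; no test was made. Col3a1 stood at 5396, 2861, 11833 and 7486, Col1a2 at 3588, 2709.6, 6246 and 5209 and Lox at 321, 285, 780.0 and 903. In all 3 both KO animals were above both WT animals. The count depended on the denominator, since with mitochondrial and haemoglobin genes kept 10 members were above and 2 below, where 11.4% and 29.6% of genes were, and mitochondrial genes took 4.09, 3.54, 31.7 and 21.1% of these wells' UMIs. Fibroblast markers in these wells, given above, were higher in both KO animals, as were endothelial markers (0.0972, 0.0396, 0.159 and 0.178%), macrophage markers (0.182, 0.110, 0.210 and 0.247%) and cardiomyocyte markers (0.0380, 0.0571, 0.117 and 0.285%), while smooth muscle markers were lower; their part in the result was not tested. A higher summed share of the 34 genes in both KO animals was not particular to Postn-led wells. In the 35, 24, 17 and 7 B-like NCM wells this share was 0.279, 0.448, 2.58 and 2.39% of UMIs. Few wells stand behind the KO2 value, and the cause was not tested. The Postn-led wells of the CM fraction were under 20 in 3 of the 4 animals, and mitochondrial genes took 21.5, 24.2, 19.5 and 23.9% of their UMIs. There Col3a1 stood at 5599.5, 4272, 3282 and 3978, Col1a2 at 4260.4, 2562, 1794 and 1840.2 and Lox at 247, 385, 265 and 327, so that the collagens lay on the other side from the NCM fraction and Lox overlapped.

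**Figure D5:**
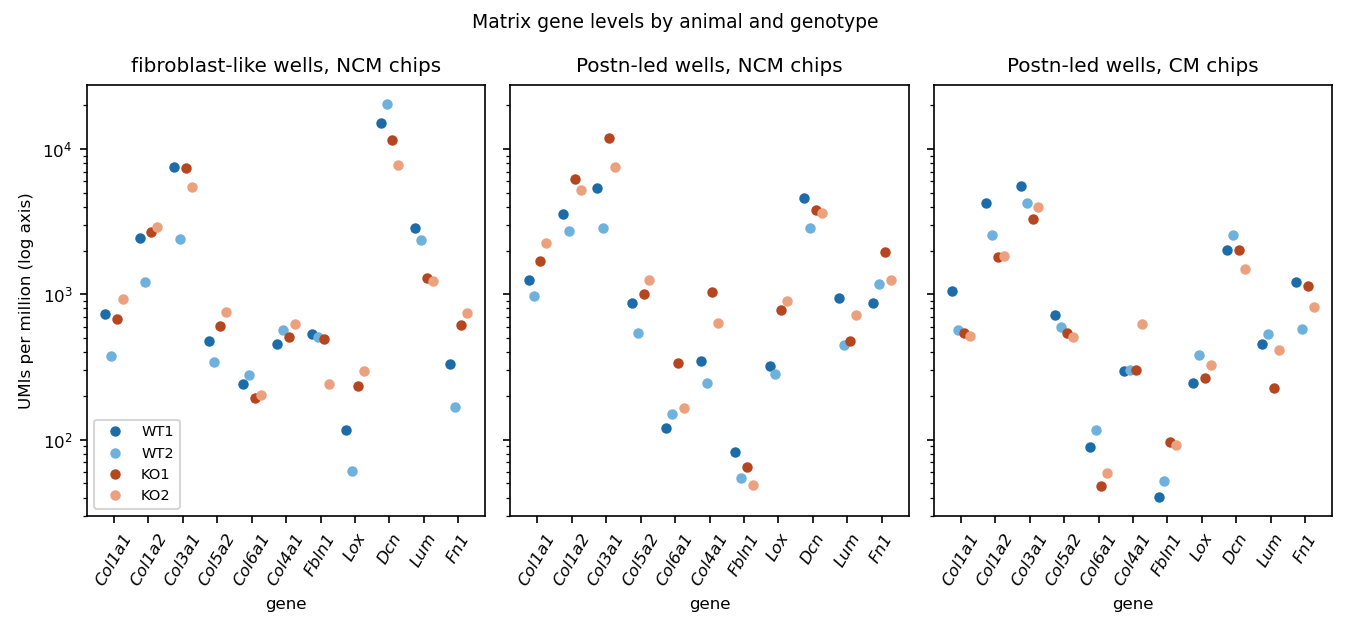
Levels (UMIs per 1000000 UMIs, log axis) of 11 genes in fibroblast-like NCM wells, Postn-led NCM wells and Postn-led CM wells, 1 point per animal, WT and KO marked separately. Both KO points lie below both WT points for Dcn and Lum in fibroblast-like wells and above them for Col1a1 and Col3a1 in Postn-led NCM wells, while in Postn-led CM wells Col1a1 and Col3a1 lie the other way.

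Endothelial-like NCM wells gave small genotype differences in their own collagens. Col4a1 stood at 1202, 924, 1365 and 1024 (log2 difference 0.05, SE 0.26, adjusted p = 0.955, edgeR) and Col4a2 at 556, 496, 596 and 470.2 (log2 difference -0.09, SE 0.30, adjusted p = 0.919, edgeR), with KO and WT animals mixed. Of all 34 members, 17 had both KO animals above both WT animals and 2 had both below, where 22.8% and 16.2% of genes with at least 40 UMIs did. The 2 below were Nid1 and Eln, and Eln was rare in these wells. The 40 UMI filter was not applied to the members. Fibroblast markers in these wells, given above, were higher and endothelial markers lower in both KO animals than in both WT animals, and macrophage markers (0.503, 0.396, 0.611 and 0.649%) and pericyte markers (0.0520, 0.0791, 0.0895 and 0.0965%) were higher; their part in the result was not tested. Col8a1 stood at 25.2, 39.2, 101 and 229.7 (log2 difference 2.20, SE 0.65, adjusted p = 0.371, edgeR), and was the 1 member DESeq2 called. Lox stood at 10.97, 65.5, 118 and 154, Loxl1 at 80.3, 18.6, 132 and 156 and Mfap5 at 494, 486, 625 and 1482. Col8a1, Lox, Loxl1 and Mfap5 did not overlap between genotypes. Col1a2 stood at 543, 222, 628 and 1132, Fbln2 at 118, 99.1, 190.5 and 311, Lum at 144, 121, 153 and 167 and Mgp at 1164, 890.1, 1171 and 1948, all with both KO animals above both WT animals. Col3a1 stood at 1193, 395, 868 and 1935, Col6a1 at 73.0, 35.8, 37.8 and 96.2, Dcn at 1266, 855, 1322 and 1165 and Sparc at 3394, 2436, 3377 and 2851, with the genotypes mixed. Neutrophil-like wells held 992, 1989.6, 1397 and 1447 of Mfap5, 509.6, 743, 680.3 and 963 of Col1a2, 145, 517, 129 and 544 of Lum, 1084, 4112, 1706 and 3198 of Mgp and 52.3, 188, 165 and 157 of Loxl1. The endothelial-like level was under the neutrophil-like one in 4 animals for Fbln2, in 3 for Mgp, Lum, Loxl1 and Mfap5, in 2 for Col1a2 and Lox, and in 1 for Col8a1.

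In macrophage-like wells the 2 genotypes drew on the same clusters in different proportions. Cluster 3 gave 192, 198, 31 and 23 of these wells, cluster 5 gave 85, 57, 44 and 35, and cluster 13 gave 17, 33, 2 and 10. Fn1 stood at 816, 653, 1035 and 717 (log2 difference 0.31, SE 0.31, adjusted p = 0.735, edgeR), with KO and WT animals mixed. Col4a1 stood at 131, 187, 367 and 861 (log2 difference 2.15, SE 0.62, adjusted p = 0.576, edgeR), Sparc at 847, 828, 1565 and 1140.2 (log2 difference 0.75, SE 0.28, adjusted p = 0.576, edgeR) and Nid1 at 56.0, 51.4, 55.9 and 229 (log2 difference 1.70, SE 0.76, adjusted p = 0.576, edgeR). The Col4a1 and Sparc levels were higher in both KO animals, and neutrophil-like wells held 177, 161, 893 and 574 of Col4a1 with both KO animals higher as well. Endothelial markers in macrophage-like wells, at 0.119, 0.182, 0.511 and 0.264%, and erythroid markers, at 0.382, 0.226, 2.55 and 8.76%, were higher in both KO animals, and macrophage markers, at 4.25, 4.58, 2.94 and 3.20%, were lower; their part in the result was not tested. Fbn1 stood at 117, 56.3, 59.7 and 473, and KO2 alone was high for Fbn1 and Nid1. Col1a2 stood at 783, 421, 439 and 591, Col3a1 at 847, 996, 484 and 852, Col6a2 at 53.8, 39.7, 27.1 and 48.9 and Col8a1 at 68.4, 48.7, 40.6 and 104. Mfap5 stood at 626, 499.7, 267 and 686, Lox at 55.4, 37.4, 87.6 and 39.6 and Loxl1 at 99.7, 60.7, 55.6 and 128. Genotypes were mixed for these 7 and for Lum, at 166, 126, 147 and 222, while Dcn stood at 874, 1003, 705 and 831, with both KO animals below both WT animals. Of all members, 10 were above and 7 below without overlap, where 13.5% and 26.3% of genes with at least 40 UMIs were. The 7 include Eln, which had no UMI in either KO animal. That allows levels of up to 0.882 in KO1 and 0.311 in KO2, so Eln was not shown to be lower.

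Cardiomyocyte-like wells held little matrix RNA in 3 of the 4 animals, and KO1 held the most. Sparc stood at 373, 244, 1376 and 374 (log2 difference 1.27, SE 0.55, adjusted p = 0.746, edgeR), Col4a1 at 119.8, 124, 319.6 and 146 (log2 difference 0.72, SE 0.41, adjusted p = 0.787, edgeR) and Col4a2 at 53.1, 74.2, 231 and 88.8 (log2 difference 1.08, SE 0.48, adjusted p = 0.746, edgeR). Col3a1 stood at 157, 212, 667 and 115, Col1a2 at 229.7, 109, 385 and 81.4 and Dcn at 174, 108, 205 and 93.3. KO1 was the highest animal in all 6, and its cardiomyocyte-like wells also had the highest mitochondrial share, at 48.1, 41.8, 59.7 and 38.6%, and the lowest summed level of cardiomyocyte markers. The part of these values in the result was not tested. Col6a2 stood at 2.35, 10.1, 74.8 and 2.86, Col8a1 at 15.5, 11.7, 58.2 and 13.9 and Fbn1 at 11.9, 40.1, 112 and 13.2. Mfap5 stood at 66.9, 74.3, 172 and 81.9, Lox at 8.36, 14.2, 45.5 and 3.57 and Loxl2 at 16.9, 7.75, 59.9 and 5.12. KO1 was again the highest animal for these 6, whereas Mgp was highest in WT1, at 426, 113, 306 and 129. Ogn stood at 108, 109, 47.7 and 73.2, with both KO animals below both WT animals, and 8 members were above and 1 below without overlap, where 20.3% and 15.4% of genes were.

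Over all CM wells, 5 members were above and 5 below without overlap (16% and 12.7% of genes). Ogn stood at 201, 139, 80.5 and 77.8, and was among those below (log2 difference -1.17, SE 0.37, adjusted p = 0.999, edgeR). Col4a1 and Col4a2 stood at 224, 169.5, 431 and 224 and 80.7, 83.1, 197 and 116. Both KO animals were above both WT animals, but Col4a1 in KO2 was above WT1 only beyond the printed digits. Endothelial markers were 0.211, 0.190, 0.446 and 0.213% of these wells' UMIs. They were also higher in both KO animals, with KO2 close to WT1, and their part in the result was not tested. For the members given above for the fraction comparison, KO2 was the lowest animal for Col3a1, Dcn, Mfap5, Fbln2, Loxl1, Col6a2, Col8a1, Sparc and Mgp. Col1a2 stood at 791, 439.9, 608 and 155 and Lox at 43.4, 66.7, 66.7 and 20.05, also with KO2 the lowest. In endothelial-like CM wells, cardiomyocyte markers (4.96, 8.17, 2.96 and 7.50%) took more UMIs than endothelial markers (0.941, 0.670, 1.25 and 0.646%) in each animal. There 9 members were above and 1 below (22.5% and 8.05%). The 1 below was Eln, which had no UMI in KO1, and that allows a level of up to 0.975. Fibroblast markers, at 0.00712, 0.00631, 0.0333 and 0.00833%, were higher in both KO animals; their part in the result was not tested. Dcn stood at 37.1, 10.6, 292 and 70.0 there (log2 difference 2.63, SE 0.80, adjusted p = 0.921, edgeR), Loxl1 at 4.64, 0.604, 69.2 and 14.5 (log2 difference 3.70, SE 1.32, adjusted p = 0.921, edgeR) and Ogn at 35.4, 41.7, 136 and 70.6 (log2 difference 1.04, SE 0.65, adjusted p = 0.937, edgeR). Col8a1 stood at 7.59, 11.2, 21.1 and 19.2, Lox at 4.22, 9.96, 21.8 and 13.8 and Mgp at 73.3, 84.2, 201 and 142. These 6 had both KO animals above both WT animals. Col4a1 stood at 689, 363, 754 and 473, Col4a2 at 301, 168, 314 and 243 and Sparc at 1808, 639, 2013 and 1124. Col1a2 stood at 90.6, 34.7, 159 and 68.9, Col3a1 at 216, 51.6, 367 and 116, Fbln2 at 108, 36.5, 139 and 40.5 and Mfap5 at 64.1, 25.4, 167 and 43.9. Genotypes were mixed for these 7 and for Col6a2, at 24.4, 0, 9.10 and 9.83, where 0 UMIs in WT2 allow a level of up to 0.906. The cluster that holds most endothelial-like CM wells had 7 endothelial markers among its 30 leading genes within its libraries and 0 among those against all wells, which include the muscle genes Xirp2, Csrp3, Acta1 and Cryab.

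Over all NCM wells, 14 members were above and 5 below, against 26% and 19% of genes. Col4a1 stood at 321, 394, 883 and 787 (log2 difference 1.06, SE 0.20, adjusted p = 0.318, edgeR), Col4a2 at 135, 169, 394 and 264 (log2 difference 0.93, SE 0.26, adjusted p = 0.318, edgeR) and Lox at 139, 78.2, 200.5 and 275 (log2 difference 1.00, SE 0.35, adjusted p = 0.332, edgeR). Both KO animals were above both WT animals for these 3, for Col8a1, Loxl1 and Fbln2. Dcn stood at 4654, 5219, 3288 and 2614 (log2 difference -0.91, SE 0.17, adjusted p = 0.318, edgeR) and Lum at 886, 626, 383 and 471 (log2 difference -0.97, SE 0.26, adjusted p = 0.318, edgeR), with both KO animals below. Col1a2 stood at 1813, 864, 1611 and 2022, and genotypes were mixed for it, Col3a1, Col6a2, Mfap5, Sparc and Mgp, whose levels are given with the fraction comparison. Endothelial markers in these wells summed to 0.309, 0.660, 1.06 and 0.586%, with the genotypes mixed. Pericyte markers (0.0336, 0.0588, 0.0820 and 0.101%) and erythroid markers (1.19, 3.42, 4.48 and 11.97%) were higher in both KO animals. Fibroblast markers (0.506, 0.580, 0.465 and 0.358%), macrophage markers (1.70, 1.97, 1.02 and 1.24%) and neutrophil markers (0.234, 0.130, 0.0929 and 0.0878%) were lower in both. The class makeup differed too, since the Ankrd29-led cluster gave 21, 21, 181 and 254 wells, which were 3.03, 2.99, 25.3 and 34.003% of the animals' NCM wells. The part of these values in the differences was not tested.

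The genotype difference was also compared between fibroblast-like and endothelial-like NCM wells, which share animals and chips. No member passed in edgeR (0 higher and 0 lower of 34), with 7 on the lower and 0 on the higher side at an unadjusted p under 0.05, where 4.21% of all genes were on the lower and 4.03% on the higher side. The median member differed by -0.76 and the median gene by -0.08. Mfap5 had the smallest p, with levels of 13014, 9488, 3742 and 8732 in fibroblast-like and 494, 486, 625 and 1482 in endothelial-like wells (log2 difference -2.02, SE 0.16, adjusted p = 0.120, edgeR). DESeq2 called 1 member lower, Mfap5, where it called 0.982% of all genes lower. Dcn (-1.23, SE 0.34) and Lum (-1.40, SE 0.26) were not called (adjusted p = 0.539 for both in edgeR). The related list gave no edgeR call in any KO comparison or in this one, with 0 of 46 in NCM wells (9 on the higher and 1 on the lower side at an unadjusted p under 0.05) and 0 of 44 tested in fibroblast-like wells (7 and 3).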

How the data were processed

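The deposited values are counts. The total of each well matched the distinct combinations of UMI and gene listed for it by the authors, so a value counts UMIs. The notes of the submitters on processing name the build mm10 and, as tools, Subread 1.4.6-p1, featureCounts and STAR 2.5.2b. Strand setting and UMI rule: not given in the sources used here. Animal and fraction of each well came from the deposited reports.

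Columns that name no mouse gene (70, spike-ins and a reporter, 4.98e-05% of UMIs) were left out, and 0 columns lacked a sample. Wells needed 10000 UMIs and 300 genes, and control wells were dropped. This kept 1395, 484, 649 and 1462 wells (WT NCM, WT CM, KO CM, KO NCM; medians of 70186, 119503, 144229 and 88919 UMIs). Deeper wells weigh more in a sum.

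Log-scaled counts were clustered without the 34 members and 46 related genes (scanpy 1.11.5, leidenalg 0.10.2, 2000 variable genes, 30 components, 15 neighbours, resolution 1.0). A cluster was named when at least 3 markers of a class were among its 30 leading genes within its libraries or, where these gave no name, among those against all wells, a scoring rule chosen after seeing the data. The second list named a cardiomyocyte-like cluster of 537 wells (6 markers, 0 within libraries) and a macrophage-like cluster of 446 wells (3, 2 within libraries). Doublets called by Scrublet were kept, and left out as an alternative.

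Sums per animal were tested with edgeR 4.0.16 (R 4.3.3; quasi-likelihood, TMM, filterByExpr, Benjamini-Hochberg over all genes; the CM and NCM comparison and the class comparison take all 4 animals), with DESeq2 1.42.0 as an alternative. SE is the log2 difference divided by the square root of F. The KO fits held genotype only, and the fraction, class and interaction fits held the animal as a block, because their sums come from the same animals. Mitochondrial and haemoglobin genes were left out of the sums. The scripts were tested on simulated data. Other alternatives were library totals, no filter, legacy dispersion, a replicate block, each animal left out, mitochondrial genes kept, 20000 UMIs, wells thinned to 5000 UMIs, resolution 0.5 and members left in the clustering. The 40 UMI filter, the ratios and correlations, the Postn-led comparisons and the endothelial-like CM test were chosen after seeing the data. That filter was set on the shares over all genes and not on the members.

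Members past the threshold are named with values in every animal, and otherwise the 2 most abundant of each role group. Others named after their values were seen are Ogn, Lox, Fn1 and Eln where not called, and the genes of the Postn-led comparison. The members and lists were chosen with earlier results of these data known. Other software was matplotlib 3.10.9, pandas 2.3.3, numpy 2.4.6 and scipy 1.17.1 under Python 3.11.15.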

Additional observations from a re-analysis of the deposited data

Results flagged for a closer look

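Some genotype differences pointed one way in all animals of the NCM fraction and the opposite way in all animals of the CM fraction, as log2 of the KO mean level over the WT mean level. These opposite directions were not tested. Over all wells, Fbln1 gave -0.56 in NCM and 0.73 in CM wells. In Postn-led wells, of which CM wells were under 20 in 3 of the 4 animals, Col1a1 gave 0.83 in NCM and -0.62 in CM wells, Col1a2 0.86 and -0.91, and Col3a1 1.23 and -0.44. Col5a2 gave 0.68 and -0.34 and Col6a1 0.89 and -0.94 in the same wells. In macrophage-like wells, Col5a2 gave 0.52 in NCM and -2.39 in CM wells.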

How the results depend on the processing

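Of the alternative values of counts of members, 291 stayed within 1.5 times the reported count and 25 did not. DESeq2 called 2 members higher in all NCM wells, 1 in fibroblast-like wells and 1 in endothelial-like wells, and 1 lower for the difference of the KO effect between these classes, as did edgeR's legacy dispersion (1), all against 0. Of all genes DESeq2 called 1.93, 1.91 and 1.01% higher in these sets and 0.982% lower for the difference. Legacy dispersion called 1 of 13752 genes lower for the difference. Members lower in the CM fraction numbered 8 over the WT animals, 0 over the KO animals and 13 to 22 with 1 animal left out, against 24. The fit over the WT animals called 202 of 16470 genes lower, and the fit over the KO animals called 0 of 15826 genes. Members lower in fibroblast-like than endothelial-like wells numbered 1 without a low-count filter, 1 with thinned wells and 0 to 1 with 1 animal left out, against 2. In Postn-led NCM wells, 21 members (18.4% of genes) had both KO animals above both WT animals. They numbered 10 with mitochondrial and haemoglobin genes kept (11.4% of genes) and 21 to 30 with 1 animal left out (25.9 to 36.3%). Members below numbered 2 with those genes kept (29.6%), 1 with thinned wells (22.1%) and 0 to 5 with 1 animal left out (30.6 to 37.6%), against 0 (19.6%). Leaving out an animal thus raised both shares over all genes. Members higher in Postn-led than fibroblast-like wells numbered 9 with thinned wells (12.6% of genes) and 5 to 8 with 1 animal left out (13.8 to 17.1%), against 5 (10.2%). Those lower numbered 4 with mitochondrial genes kept (7.63%) and 9 to 15 with 1 animal left out (14.1 to 16.9%), against 9 (10.1%). The causes were not tested.

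Small KO differences in fibroblast-like wells reversed: Col6a2 to 0.16, Col4a1 to 0.54, Fbln2 to 0.28, Sparc to 0.0907 and Mgp to 0.0559 at resolution 0.5, Col4a1 to 0.16, Fbln2 to 0.18 and Sparc to 0.0843 with library totals, Col4a1 to 0.0282 and Fbln2 to 0.0441 with DESeq2, and Col4a1 to 0.0883 with members left in the clustering. With 1 animal left out, Col3a1 ran from -0.39 to 1.21, Col6a2 from -1.11 to 0.00809, Col4a1 from -0.28 to 0.16, Fbln2 from -0.23 to 0.16 and Sparc from -0.41 to 0.30. Numbers 1 and 2 name animals only, and with them as a replicate block edgeR called 0 members in each KO comparison, as without the block. Wells under 30% mitochondrial UMIs (outside the KO comparison over all CM wells), resolution 0.5 for cardiomyocyte-like and endothelial-like CM wells, 20000 UMIs for Postn-led wells, and every test of pericyte-like NCM and fibroblast-like CM wells were not run, because an animal had too few wells. With 2 animals a group, missed calls do not show equal levels.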
